A study of Mus musculus with 4 samples.

Results

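Grb10 and Zrsr1 are imprinted genes of mouse chromosome 11, and their CpG islands were followed here across 4 arrays of methylated DNA from embryonic stem cells. The members are the 61 array probes that lie on chromosome 11 from 11800000 to 12050000 (Grb10, 21 probes) or from 22750000 to 22950000 (Zrsr1, which lies within Commd1, 40 probes), of 97179 probes used. They form 7 of the array's 14121 regions. The windows were selected on the measured log2 ratios of these same arrays, in which an island of each was far lower in Parp-1 deficient clones than in wild type, so those differences are given as a description, with no test. Methylated DNA was pulled from sonicated genomic DNA of mouse embryonic stem cells with an antibody against 5-methylcytidine, and this Cy5 channel was read against sonicated DNA that had not been precipitated (whole DNA, Cy3). There was 1 array of untreated J1 cells (wild type), 1 of each of 2 Parp-1 deficient lines derived from J1 (210-58 and 226-47), and 1 of J1 cells treated with the Parp inhibitor PJ34. Parp-1 builds chains of poly(ADP-ribose) on nuclear proteins, and PJ34 blocks this activity. The dose and duration of PJ34 and the independence of the 2 lines are not stated in the labels.

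In an imprinted gene the copy from one parent is expressed and the other is silent, and the choice is kept by DNA methylation that was laid down on one parental copy in the germ line. The chemical mark survives the wave of demethylation after fertilisation, and embryonic stem cells of the early embryo normally carry it. Grb10 encodes an adaptor protein that binds receptor tyrosine kinases such as the insulin receptor and restrains growth. It has an island inside the gene that is methylated on the maternal copy, and it is expressed from the maternal copy in most tissues and from the paternal copy in neurons. Zrsr1 is an intronless gene related to the splicing factor subunit U2af1. It sits inside an intron of Commd1, a gene of copper handling and protein turnover, and it is expressed from the paternal copy, with methylation of its promoter on the maternal copy. An array of this kind does not separate the parental copies.

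RefSeq's promoter table for build GRCm38.p6 held all 3 genes, with 2 starts listed for Grb10, 2 for Commd1 and 1 for Zrsr1. A promoter here is the 300 bases from 250 before a start to 50 after it. The promoters of both imprinted genes are shown because they differ in the density of CpG, the dinucleotide that carries the methylation. Every CpG is in capitals, and the strand is that of the gene.
Grb10, listed start with the denser CpG (chr11:12037371-12037670, minus strand): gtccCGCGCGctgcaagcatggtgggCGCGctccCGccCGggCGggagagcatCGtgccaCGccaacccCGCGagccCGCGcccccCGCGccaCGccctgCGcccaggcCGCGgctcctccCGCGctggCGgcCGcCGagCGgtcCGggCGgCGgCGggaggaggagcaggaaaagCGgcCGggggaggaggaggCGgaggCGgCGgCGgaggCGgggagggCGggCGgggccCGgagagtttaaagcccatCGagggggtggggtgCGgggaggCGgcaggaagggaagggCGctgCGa
Grb10, start inside the gene (chr11:12027922-12028221, minus strand): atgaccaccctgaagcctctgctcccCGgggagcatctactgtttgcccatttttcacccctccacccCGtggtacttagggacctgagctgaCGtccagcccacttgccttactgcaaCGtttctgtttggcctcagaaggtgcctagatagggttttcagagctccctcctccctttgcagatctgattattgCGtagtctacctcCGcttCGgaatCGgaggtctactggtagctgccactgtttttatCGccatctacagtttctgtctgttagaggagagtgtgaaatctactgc
Zrsr1 (chr11:22971755-22972054, plus strand): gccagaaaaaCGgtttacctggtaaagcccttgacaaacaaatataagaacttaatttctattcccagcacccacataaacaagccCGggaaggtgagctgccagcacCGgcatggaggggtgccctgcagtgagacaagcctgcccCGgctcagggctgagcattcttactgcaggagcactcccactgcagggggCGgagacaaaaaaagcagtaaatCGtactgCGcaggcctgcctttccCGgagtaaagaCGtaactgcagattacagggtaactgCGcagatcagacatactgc
The first Grb10 promoter holds 45 CpG, a number reached by 1.93% of the 32851 promoters in the table, whereas the start inside the gene has 9 and Zrsr1 has 10. A promoter of the table has a median of 7. The Commd1 starts have 18 and 17 CpG. The letters TGCCGC, in which the zinc finger protein ZFP57 is known to recognise methylated imprinted DNA, were searched on both strands (GCGGCA on the other). They occur 1 time in the first Grb10 promoter and 1 time in the first Commd1 promoter, and are not among the letters of the other 3 promoters. No probe was placed on these promoters, and the letters of the islands measured by the array were not searched. The letters TGCCGC or GCGGCA are held by 11.6% of all promoters listed.

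Probe positions follow the array's own design, for which the headers name no build. They are not those of GRCm38, so no probe was placed on a RefSeq start. The spacing can be set side by side. In RefSeq the Zrsr1 start and the first Commd1 start, on opposite strands, lie 10.3 kb apart, and in the files the centres of the Zrsr1 island and of the next group of probes lie 9.66 kb apart. Taken from the start of the Zrsr1 island, the centre of that next group lies 10.2 kb away. The second listed Commd1 start lies 0.861 kb from the Zrsr1 start. Whether these starts fall inside the island was not tested. For Grb10 the 2 RefSeq starts are 9.45 kb apart and the centres of the 2 groups of probes 11.4 kb. The names Grb10 and Zrsr1 thus rest on the windows and not on a match of probe sequences.

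The 61 probes, 45 to 60 bases long, fell into 7 runs, that is, groups of at least 3 probes whose neighbouring starts are at most 500 bp apart, and no probe was left over. The value of a probe is the log2 of its Cy5 over its Cy3 signal, centred on the median of each array, so that 0 is a typical probe. It was not corrected for the density of CpG, so levels of different regions are compared as signal and not as share of methylation. A run's value is the mean over its probes, with the SD over probes, which share a target and are not replicates. The Grb10 window holds a run of 10 probes over 879 bp (11925467 to 11926345) and one of 11 probes (11936447 to 11938162), 10102 bp further on. The Zrsr1 window holds a run of 17 probes (22758875 to 22760809), one of 9 probes over 1053 bp (22872000 to 22873052), and 3 small runs of 4, 5 and 5 probes starting at 22881881, 22890563 and 22908188. The run of 10 probes is called the Grb10 island and the run of 9 the Zrsr1 island. Both windows are bordered by stretches without probes, the nearest probe outside lying 90865 bp before the start of the Grb10 window and 17665 bp past the end of the Zrsr1 window.

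The Grb10 island had a high methylation signal in wild type and PJ34 treated cells and lay at the level of a typical probe in both Parp-1 deficient lines. Its log2 ratio was 3.65 (SD over probes 0.13) in wild type, -0.12 (0.77) in 210-58, 0.11 (0.74) in 226-47 and 4.58 (0.37) after PJ34. The 2 deficient lines lie together and far below the others, with an SD between them of 0.16. That SD was 0.005 with normexp and 0.35 under intensity loess. Relative to wild type the difference was -3.76 in 210-58 and -3.53 in 226-47, which on the linear scale is a ratio 13.6-fold and 11.6-fold lower. These folds depended on the processing, being 6.28 and 6.25 with normexp and 6.83 and 4.84 under intensity loess. Among the 14121 regions of the array the island stood at the 96.3 percentile in wild type and at 97.9 after PJ34, but at 45.8 in 210-58 and 53.2 in 226-47.

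Each of its 10 probes was lower in both lines than in wild type. The differences ran from -5.19 to -2.06 in 210-58 and from -4.66 to -1.76 in 226-47, and the lowest wild type probe, at 3.42, was above the highest of the deficient lines, at 1.67. A probe near the middle shows what was scanned. At 11925746 to 11925793 the processed Cy5 intensity was 10856 in wild type, 895 in 210-58, 873 in 226-47 and 22771 after PJ34, while the Cy3 intensity of whole DNA was 1002, 1257, 1168 and 839. At this probe the arrays differed in the precipitated DNA far more than in whole DNA. The probe at 11925917 to 11925961 kept more signal than its neighbours in both lines, at 1.36 in 210-58 and 1.67 in 226-47 against 3.42 in wild type. Over the 10 probes the 2 lines had a Pearson correlation of 0.92, a description over probes that share their sequence and arrays. The probe at the edge, from 11925467 to 11925526, was dim in Cy3 (intensities of 44.5 to 134), but its differences of -3.16 and -3.03 lay within the range of the others. The error of a log2 ratio in the scanner software's own model had a median of 0.38 for this island in wild type and of 0.22 and 0.21 in the deficient lines.

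**Figure D1:**
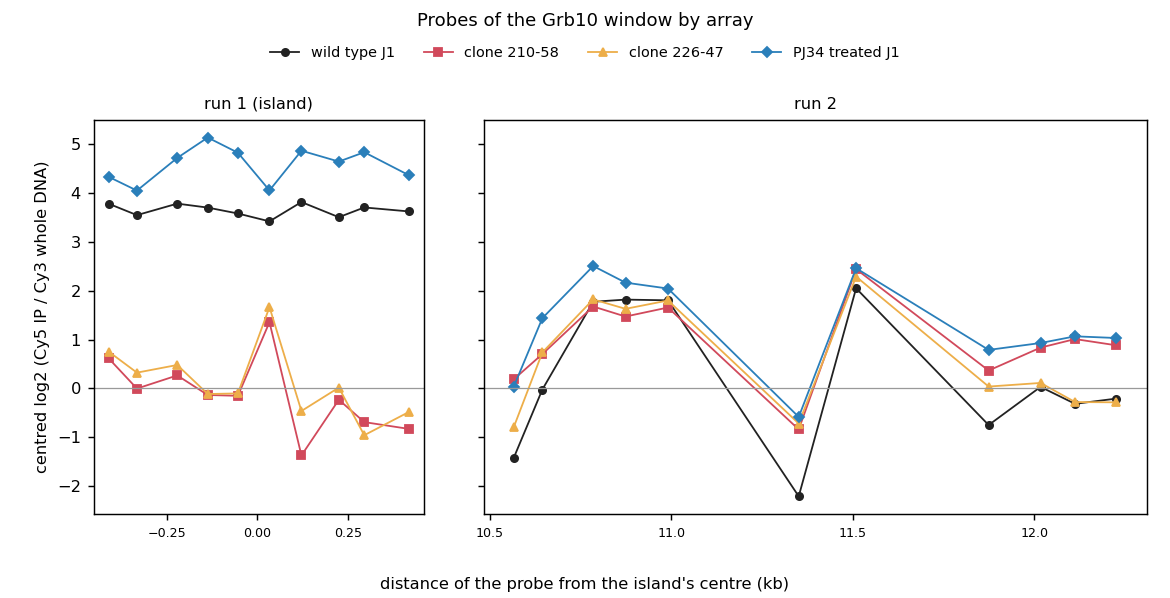
Centred log2 ratio of Cy5 (immunoprecipitated DNA) over Cy3 (whole DNA) for the 21 probes of the Grb10 window, plotted against their distance in kb from the centre of the island, with 1 line for each array. In the island the wild type and PJ34 treated arrays lie at 3.42 or above at every probe and both deficient lines at 1.67 or below, whereas the lines of the second run overlap.

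The second run of the Grb10 window did not share this pattern. Its level was 0.23 (SD over probes 1.45) in wild type, 0.94 (0.88) in 210-58, 0.58 (1.13) in 226-47 and 1.26 (0.99) after PJ34, so all 3 other arrays were above wild type and the ranges of the probes overlapped on all 4. Within the run the probes from 11936669 to 11936919 were at a like level in wild type and both deficient lines and higher after PJ34. They lay at 1.77, 1.82 and 1.80 in wild type, at 1.68, 1.47 and 1.66 in 210-58, at 1.82, 1.63 and 1.80 in 226-47, and at 2.51, 2.17 and 2.04 after PJ34. The probe at 11937235 to 11937279 was the lowest of the run on 3 of the arrays, with -2.21 in wild type, where its Cy5 was not well above background, -0.84 in 210-58 and -0.58 after PJ34. In 226-47 it lay at -0.72, beside -0.80 at the first probe of the run. The last 4 probes, from 11937756, lay between -0.75 and 0.03 in wild type and between -0.28 and 0.11 in 226-47, and higher, between 0.37 and 1.01, in 210-58 and between 0.79 and 1.07 after PJ34. The difference of this run under intensity loess was -0.03 in 210-58, against 0.71 without it.

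The Zrsr1 island was likewise high in wild type and PJ34 treated cells, and in the deficient lines it was among the lowest regions of the array. It measured 2.89 (SD over probes 0.14) in wild type, -1.98 (1.07) in 210-58, -1.16 (0.95) in 226-47 and 3.80 (0.26) after PJ34. The deficient lines differ from wild type by -4.87 and -4.06, with an SD between them of 0.58. That SD was 0.08 with normexp, 0.13 under quantile normalization and 0.45 under intensity loess. On the linear scale the fold depended on the processing. The ratio was 29.3-fold and 16.6-fold lower with the scanner's own background correction and 5.99-fold and 5.52-fold lower with normexp. As a percentile of all regions the island went from 94.0 in wild type to 1.51 in 210-58 and 2.03 in 226-47, and it was at 96.1 after PJ34. In the deficient lines the Grb10 island was thus near the middle of the array and the Zrsr1 island near its bottom.

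All 9 probes of the Zrsr1 island were lower in both lines, with differences from -6.57 to -3.29 in 210-58 and from -5.06 to -2.70 in 226-47. The lowest wild type probe stood at 2.70 and the highest of the deficient lines at 0.19, so these did not overlap either. At 22872678 to 22872723 the Cy5 intensity was 4170 in wild type, 99.4 in 210-58, 119 in 226-47 and 7901 after PJ34, beside Cy3 intensities of 611, 1069, 597 and 595. Cy5 was well above background at 9 of 9 probes in wild type, 226-47 and PJ34 treated cells and at 8 of 9 in 210-58, where the probe at 22872152 to 22872201 was not, with a log2 ratio of -3.57. The size of the difference in 210-58 is therefore uncertain at that probe. Other probes were flagged as well above background but were also dim. Cy5 was 126 at 22872768 in 210-58 and 106 at 22872152 in 226-47, so the limit is not confined to 1 probe or line. The probes from 22872291 to 22872581 kept the most signal in 226-47, at -0.11, 0.19 and 0.04, and 2 of these 3 were also the highest in 210-58, at -0.73 and -0.50. The correlation between the deficient lines over the 9 probes was 0.83. The size of the difference depended on background correction, the mean of both lines being -4.46 with the scanner's own and -2.52 with normexp. Normexp was run with an offset of 50 added to every signal, and the part of that offset in the change was not tested.

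**Figure D2:**
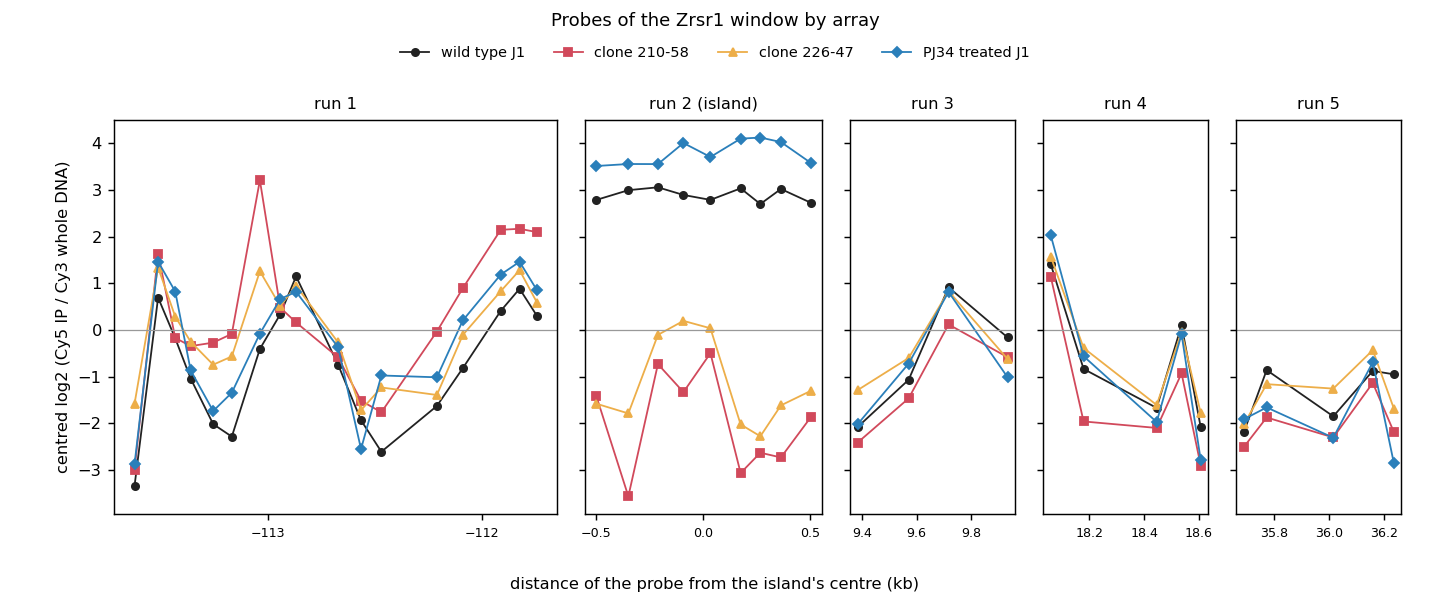
Centred log2 ratio of Cy5 over Cy3 for the 40 probes of the Zrsr1 window, against the distance in kb from the centre of the island, with 1 panel for each of the 5 runs and 1 line for each array. In the island every wild type and PJ34 treated probe is at 2.70 or above and every probe of the deficient lines at 0.19 or below, whereas in each of the other runs the range of the probes overlaps between the 4 arrays.

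The 3 small runs past the Zrsr1 island had mean levels below 0 on all 4 arrays. The run that starts 8829 bp past the island, at 22881881, measured -0.60 in wild type, -1.09 in 210-58, -0.42 in 226-47 and -0.74 after PJ34. At 22890563 the values were -0.62, -1.35, -0.45 and -0.68, and at 22908188 they were -1.35, -2.00, -1.31 and -1.89, in the same order of arrays. In these 3 runs 226-47 differed from wild type by 0.18, 0.17 and 0.03, whereas 210-58 differed by -0.49, -0.73 and -0.66 and all 14 probes were below wild type there. At the last of these probes, from 22908734 to 22908793, Cy5 was not well above background on any array. The probe ranges of the 4 arrays overlapped in each run, and the sign of the difference of 226-47 in each depended on the normalization. Over chromosome 11 the median difference of a region from wild type was -0.19 in 210-58 and 0.10 in 226-47, and over other chromosomes -0.04 and 0.07. The higher whole-DNA signal of chromosome 11 in 210-58 (given at the end) went with these differences, and its part in them was not tested.

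The first run of the Zrsr1 window, 111191 bp before the island, was higher than wild type in the deficient lines and also after PJ34. It measured -0.78 (SD over probes 1.34) in wild type, 0.29 (1.61) in 210-58, -0.05 (1.04) in 226-47 and -0.26 (1.36) after PJ34. Of its 17 probes, 16 were above wild type in each line and 15 after PJ34. At its end, the probes from 22760591 to 22760809 lay at 0.41, 0.88 and 0.30 in wild type and at 2.15, 2.17 and 2.10 in 210-58, but at 0.83, 1.28 and 0.58 in 226-47, so the end of the run was set apart in one line. By its mean it was the 1 of 7 runs at least 1 above wild type in 210-58, beside 3.31% of all regions. None of the 7 reached that size in 226-47, beside 0.963%. The probe at 22759467 to 22759511 was the brightest of the window and the most unequal, with Cy3 intensities of 38182 in wild type, 13761 in 210-58, 36246 in 226-47 and 25563 after PJ34 and log2 ratios of -0.41, 3.21, 1.26 and -0.08. Without it the run was above wild type by 0.92 in 210-58 and 0.67 in 226-47, against 1.08 and 0.73 with it. With all probes the difference in 210-58 was 0.81 with normexp and 0.28 under intensity loess. In 226-47 it was 0.43 under each of these, and after PJ34 it was 0.32 with normexp and 0.35 under intensity loess.

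**Figure D3:**
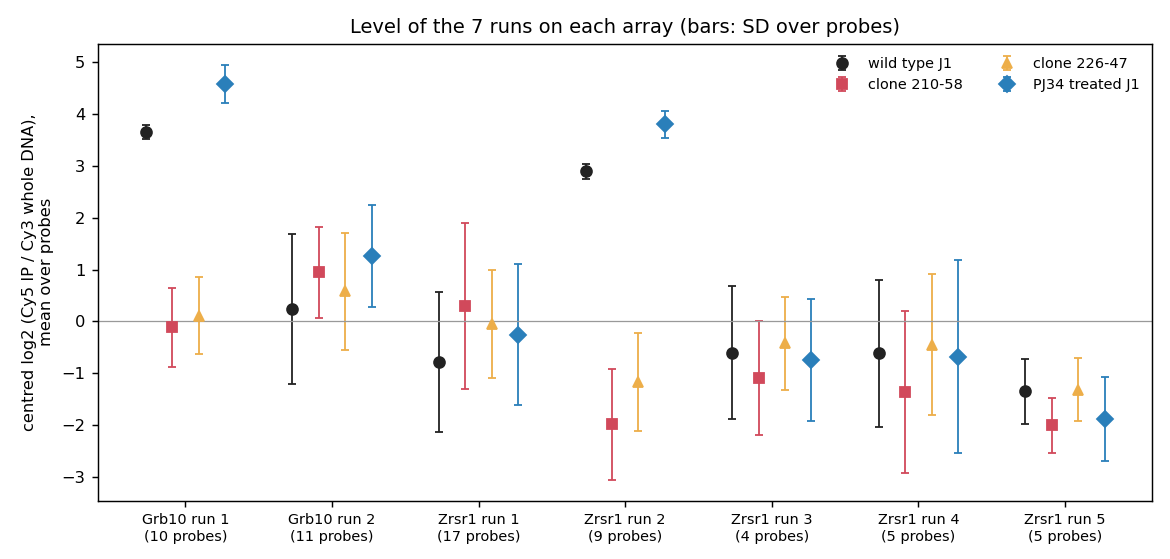
Mean centred log2 ratio of the 7 runs (2 of the Grb10 window, 5 of the Zrsr1 window) on each of the 4 arrays, with bars for the SD over the probes of the run. The 2 islands are the only runs in which wild type (3.65 and 2.89) and PJ34 treated cells (4.58 and 3.80) stand clear of both deficient lines (0.11 or below).

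Counted by a fixed size of 1 (log2), 2 of the 7 runs were that far below wild type in both deficient lines, beside 1.54% of the 14121 regions of the array, and 0 of 7 were higher by that size in both, beside 0.482%. The 2 islands were chosen for this difference, so nothing is read from the first count. The non-overlap and the count of lower island probes given after it follow from the same choice, and nothing is read from them either. On chromosome 11 alone the share of such regions was 0.749% and on all other chromosomes 1.61%. In the same 2 runs every wild type probe was above every probe of both lines, which held for 2.72% of all regions. Of single probes, 19 of 61 were lower by at least 1 in both lines, beside 2.29% of the array's probes. These 19 were the probes of the islands, and 0 of the 42 other probes reached that size. In the opposite direction 4 of the 61 were higher by at least 1 in both, beside 2.36%. Among them were the probe at 22759467, with unequal Cy3, and that at 11937235, whose wild type Cy5 was not well above background. A bulk sample does not separate fewer methylated copies in each cell from fewer cells that carry them.

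Ordered by the mean of both lines, the Zrsr1 island had the second lowest difference from wild type of all regions, -4.46, and the Grb10 island the fifth, -3.65. Over the other normalizations and centrings the rank of Zrsr1 ran from 1 to 6 and that of Grb10 from 4 to 6, and with normexp the order of the 2 islands was reversed, with -2.52 at Zrsr1 and -2.65 at Grb10. They are 2 of 6 regions that were at 2.5 or more in wild type and below 0.5 in both lines, which is 0.0425% of all regions and 0.571% of the 1051 that reach 2.5 in wild type. The islands' place among these 6 depended on the processing, since in wild type the Zrsr1 island lay at 2.05 with normexp, and under intensity loess the Grb10 island lay at 2.33 and the Zrsr1 island at 2.16, all under 2.5. Both lines were lower by at least 1 in 9.71% of those 1051. The other 4 were regions of the Peg3 domain on chromosome 7 from 6333486 to 6334587 (-4.85), of Igf2r and Airn on chromosome 17 from 12584752 to 12585952 (-3.90), and of the Gnas cluster on chromosome 2 from 173940167 to 173940489 (-3.87) and from 173941465 to 173943988 (-3.64). Peg3, Igf2r and Gnas are also imprinted genes. On chromosome 11 there were 69 regions at 2.5 or more in wild type, and in the 67 other than the islands the lowest difference of the mean of both lines was -1.15 and the median -0.31. No other region within 1000 kb of either island had a log2 ratio in wild type at most 0.5 below that island's. The 7 other regions within 1000 kb of the Grb10 island had a median of 0.07 in wild type and a lowest difference of -0.91, and the 18 within 1000 kb of Zrsr1 a median of -0.60 and a lowest difference of -0.31.

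Regions whose 4 values were most like those of each island were ranked by the Euclidean distance over the 4 arrays, in which the differences that chose the islands take part. The nearest to the Grb10 island was the Gnas region from 173941465, at a distance of 0.25, with 3.61 in wild type, 0.02 and -0.09 in the deficient lines and 4.61 after PJ34. Next came the other Gnas region (0.44), the Igf2r and Airn region (0.61), a region of chromosome 8 that starts at 125661363 (1.72) and one of chromosome 9 that starts at 91181853 (1.93). The last pair lay between 1.01 and 1.38 in the deficient lines. For the Zrsr1 island the nearest was the Peg3 region, at 0.96, with 3.49, -1.60, -1.13 and 4.45 on the 4 arrays. The following 4 were the Igf2r and Airn region (1.99), the first Gnas region (2.43), the Grb10 island (2.51) and the second Gnas region (2.52). With these values the Zrsr1 island thus lay nearer to Peg3 than to Grb10 on the same chromosome. Distances were not computed under other processing. With normexp the deficient lines lay at -0.53 (210-58) and -0.41 (226-47) at Zrsr1, closer to the -0.12 of each line at Grb10.

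**Figure D4:**
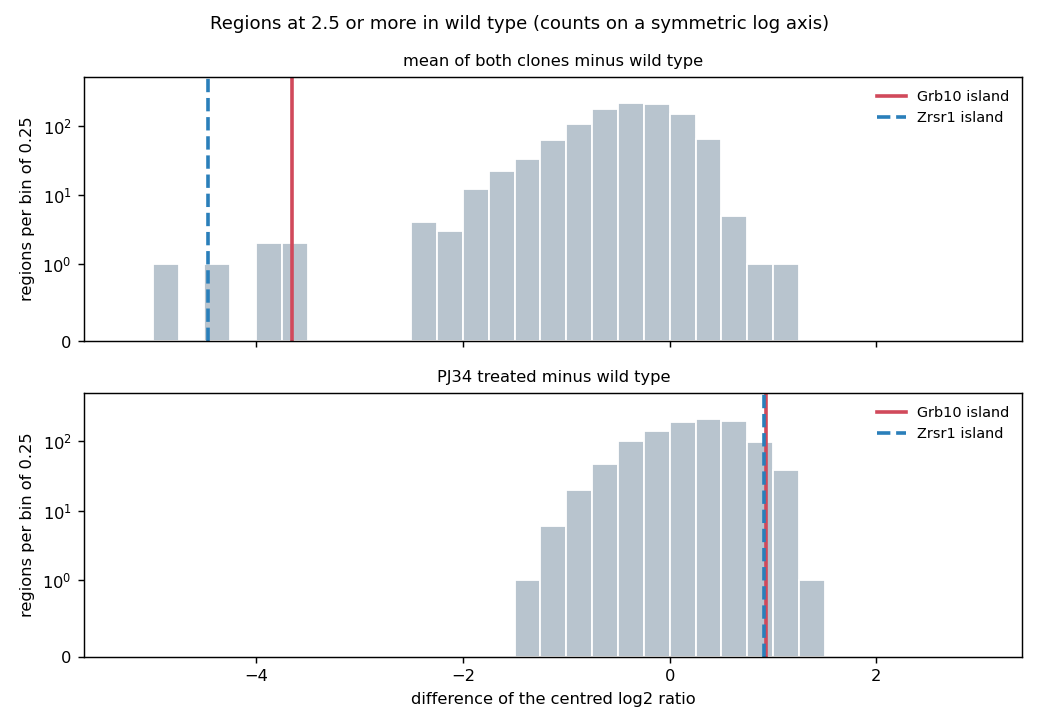
Histograms of the 1051 regions at 2.5 or more in wild type by their difference from wild type on the log2 scale, for the mean of both deficient lines (top) and for PJ34 treated cells (bottom), with counts on a symmetric log axis and vertical lines at the islands. The Grb10 island (-3.65) and the Zrsr1 island (-4.46) lie below the main group in the top panel, and at 0.94 and 0.91 in the upper part of the group in the bottom panel.

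After PJ34 both islands were above wild type, by 0.94 at Grb10 and 0.91 at Zrsr1, at 19 of 19 probes, with 1 array on each side and no replicate. The comparison shares the wild type array with that of the deficient lines. Among regions at 2.5 or more in wild type a higher value after PJ34 was common. Of these 1051, 69.9% were above wild type, with a median of 0.27, and 3.71% were above by at least 1. Setting the islands aside, 5.52% of these regions had a larger difference than Grb10 and 6.38% a larger one than Zrsr1. Both lines below wild type with PJ34 above it, by any size, held for 32.1% of the 1051 and 7.03% of all regions, and the opposite pattern for 10.2% of all regions. The 2 differences lay between 0.30 and 0.61 under quantile normalization, scaling by the median absolute deviation and intensity loess. The second Grb10 run was the 1 of 7 runs at least 1 above wild type after PJ34, at 1.03, beside 2.44% of all regions. It was under 1 with normexp (0.56), quantile normalization (0.90), intensity loess (0.55) and scaling by the median absolute deviation (0.89). After PJ34 0 of 7 runs were lower by that size, beside 1.25%. Wild type and 210-58 shared a slide, and 226-47 and PJ34 treated cells shared the other. Within its slide 226-47 minus PJ34 treated cells was -4.47 at the Grb10 island and -4.96 at Zrsr1, and within the other 210-58 minus wild type was -3.76 and -4.87. Both lines were at least 1 below PJ34 treated cells in 0.623% of regions.

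In line 210-58 the whole-DNA signal was higher over all of chromosome 11, and both windows shared this. Centred on each array's median, the log2 Cy3 signal of 210-58 was above wild type by a median of 0.45 over the 21 probes of the Grb10 window and of 0.57 over the 40 of the Zrsr1 window, with 20 and 39 probes above 0. The other 8156 probes of chromosome 11 had 0.49, with quartiles of 0.35 and 0.63, and the other autosomes -0.03. In 226-47 the same medians were 0.07 and 0.08 in the windows and 0.07 over the rest of the chromosome, and after PJ34 they were -0.02 and 0.00 beside -0.01. The islands themselves lay at 0.43 (Grb10) and 0.69 (Zrsr1) in 210-58 and at 0.03 and 0.04 in 226-47. The part of the whole-DNA signal in the islands' differences was not tested. In the Cy5 channel alone, centred the same way, the Grb10 island differed from wild type by -3.19 in 210-58 and -3.45 in 226-47, and the Zrsr1 island by -4.14 and -4.01.

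**Figure D5:**
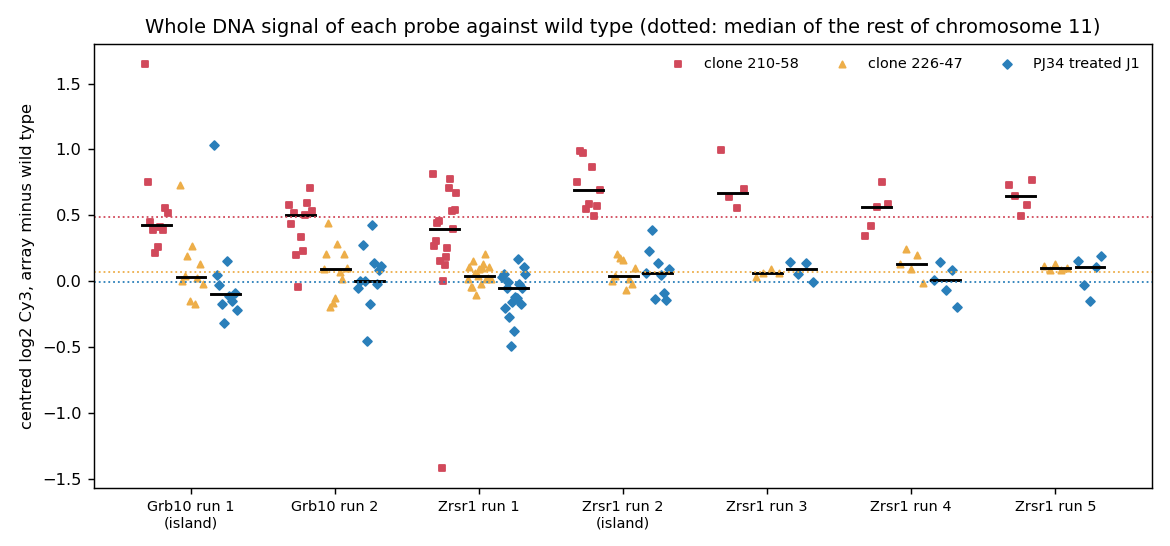
Centred log2 Cy3 signal (whole DNA) of each probe minus its value on the wild type array, for the 7 runs and the 3 other arrays, with black bars at the median of a run and dotted lines at the median of the other chromosome 11 probes. The medians of line 210-58 lie between 0.40 and 0.69, beside 0.49 for the rest of its chromosome, whereas 226-47 and PJ34 treated cells lie near 0.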

How the data were processed

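Each of the 4 samples was read on 1 CpG island array in 2 colours, with Cy5 for immunoprecipitated and Cy3 for whole DNA and no dye swap, per the labels. Agilent Feature Extraction made the deposited intensity values, in version 10.7.3.1 per the file headers and 9.1 per the submitters' processing notes. The processed intensities are background-subtracted and scaled by a linear dye factor per channel, per the file headers. The deposited value table is the linear ratio of the processed signals of the same spot. Of the scanner software's other columns, the deposited error of the log10 ratio (converted here to log2) and the flags were used. Cy5 was well above background for 91.3% to 98.0% of probes, and the number of arrays limits the precision.

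From these, the log2 ratio of Cy5 to Cy3 was centred by the median of its array, without loess or quantile steps, and averaged over runs (gap at most 500 bp, at least 3 probes). Control spots, 442 probes without a position and 30 with an outlier flag were left out. No test was run: the islands were chosen for their difference and 2 groups have 1 array each. A size of 1 on the log2 scale in both deficient lines was the call. The windows, islands and compared regions were chosen with earlier results of these data known. Every run was named, and the run with the lowest difference in each window was called the island. The runs and calls were tested on simulated data. Python 3.11.15, pandas 2.3.3, R 4.3.3 and limma 3.58.1 (for normexp with an offset of 50 and loess) were used. Alternatives are given in the closing section. The Parp1 locus was not analysed here.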

Additional observations from a re-analysis of the deposited data

Results flagged for a closer look

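At both islands each Parp-1 deficient line lay below wild type and PJ34 treated cells above it. At Grb10 the values were -3.76 in 210-58, -3.53 in 226-47 and 0.94 after PJ34, and at Zrsr1 they were -4.87, -4.06 and 0.91. They were listed because the deficient lines and the treated cells moved to opposite sides of the same wild type array. That difference was not tested. Both lines lower and PJ34 higher by any size was seen in 7.03% of all regions and in 32.1% of the 1051 at 2.5 or more in wild type.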

How the results depend on the processing

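Under all 42 alternatives for the islands the difference kept its direction, and in 32 it moved by less than the spread between the deficient lines (for PJ34, the median spread over all regions, 0.21). Not all of these 32 are checks. Other gaps and a Cy3 filter kept the same island probes and values. Leaving out a line cannot move the mean by more than the SD between the 2 lines, and the comparison within a slide repeats one such value. The 10 that moved were under normexp, loess, quantile normalization or scaling. Normexp background correction gave -2.65 at Grb10 and -2.52 at Zrsr1 for the deficient lines, and intensity loess -2.52 and -3.00. For PJ34 minus wild type, quantile normalization gave 0.55 and 0.61, intensity loess 0.48 and 0.30, and scaling by the median absolute deviation 0.42 and 0.48. Leaving out a line gave -3.76 to -3.53 at Grb10 and -4.87 to -4.06 at Zrsr1. The 2 islands stayed lower by the size set in both lines under every alternative run, with 2 runs each time. Where a line was left out, this was called in the kept line only. Over the whole array the number of such regions was 217, but 60 with normexp, 43 with loess, 1033 at a size of 0.5 and 8 at a size of 2. When a line was left out, 418 to 424 regions were lower in the kept line, which is a looser call. Cy3 of 210-58 minus wild type under normexp was 0.35 in the Grb10 window and 0.41 in the Zrsr1 window. The median region of 210-58 was 0.18 above wild type with normexp and 0.12 with centring on chromosome 11, both over 0.1. The run without its most unequal probe was added after seeing the data. Where no value shows the cause of a move, the cause was not tested. In the 3 small runs past the Zrsr1 island the sign of 226-47 minus wild type differed between settings. No paired analysis was possible because the labels give no shared replicate numbers and 2 groups have 1 array. Slides could not be fitted as a block.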
